A study of Mus musculus with 7 samples.

Results

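The genes described here encode the carriers and enzymes of mitochondrial and peroxisomal fatty acid oxidation. They were chosen as a list of 32 gene symbols, and each gene was read on its brightest probe set among those annotated with that symbol alone. Of the 32 genes, 28 had such a probe set, out of 22180 genes named this way on the array. All 28 were above the brightness filter explained below. Cpt1b and Acsl3, represented only on probe sets with several symbols, and Acsl1 and Ucp2 were not analysed here.

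RNA came from pieces of brain vessels of adult female mice, labelled C57BL/6 in the sample records and C57BL/6N, aged 12 weeks, in the series design. Mice were injected into the cerebral ventricles (ICV) with PBS or with PDGF-CC, a platelet-derived growth factor whose receptor is PDGFR-alpha, and were killed 4 h later. There were 4 PDGF-CC arrays and 3 PBS arrays. No dose, transgene or Cre is stated, and nothing says whether each array came from a separate mouse, so p-values measure the spread between these arrays, which may be technical. The comparison addresses how brain vessels respond to PDGF-CC in the ventricles.

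The deposited values are log2 intensities, so a difference of 1 is a doubling. Values of different genes are not compared with each other, because probe sets differ in brightness for reasons other than RNA level. All 12 markers of brain endothelium passed the filter, with Cldn5, Pecam1 and Cdh5 above 97%, 99% and 99% of the tested probe sets in brightness. Arrays correlated at 0.987 to 0.994. Equal values are common in the table: 63.6% of the 17734 tested probe sets, and 14 of the 28 members, held the same value in at least 2 arrays. Their origin was not tested. Acadm, for example, had the same value in 6 of 7 arrays.

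Long-chain fatty acids are first joined to coenzyme A by acyl-CoA synthetases. The acyl group is moved to carnitine by CPT1 on the outer mitochondrial membrane, carried across the inner membrane by a translocase, and returned to coenzyme A by CPT2. Beta-oxidation then shortens the chain in repeated rounds of dehydrogenation, hydration, dehydrogenation and thiolysis, and the electron transfer flavoprotein passes electrons from the acyl-CoA dehydrogenases to the respiratory chain. Peroxisomes shorten very long and branched chains with their own enzymes. In brain most of this activity is ascribed to astrocytes, and endothelial cells also use it.

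Cpt2, Eci2 and Etfb lay below all PBS arrays in each of the 4 PDGF-CC arrays, by 1.5-fold, 1.28-fold and 1.29-fold on average, while Cpt1a was level. In such bulk RNA, fewer cells of a type and less RNA per cell cannot be told apart. None of the 28 members passed the adjusted threshold of 0.05 in limma, and 0% of all tested probe sets passed it in either direction. At an unadjusted p under 0.05 the members lower after PDGF-CC were these 3, and 0 were higher. At that p 1071 of 17734 probe sets (6.04%) stood out, 3.41% on the lower side and 2.63% on the higher side. Of the 28 differences 20 were negative (71.4%), against 51.3% of all tested genes and 9 of 12 endothelial markers (75.0%, median -0.07). Their median was -0.06 (log2), beside -0.003 for all 15582 tested genes, and 13 of them lay within 0.1 of 0. The groups did not overlap for 5 members, all lower (Cpt2, Eci2, Etfb, Etfdh and Acadl), and for 0 higher, beside 2.5% and 1.8% of all tested probe sets. Without PBS array 2 the count was 8, of which 6 were lower, the median was -0.11 and 5 members were at an unadjusted p under 0.05. Over all tested probe sets 12.3% were then separated, against 4.3% with all arrays, and 5.02% were at that p. When arrays were centred on their median, Acadl no longer separated and Acads did, on the higher side. Separated probe sets then made up 8.76% of all tested. With quantile normalization repeated Etfdh also no longer separated.

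**Figure D1:**
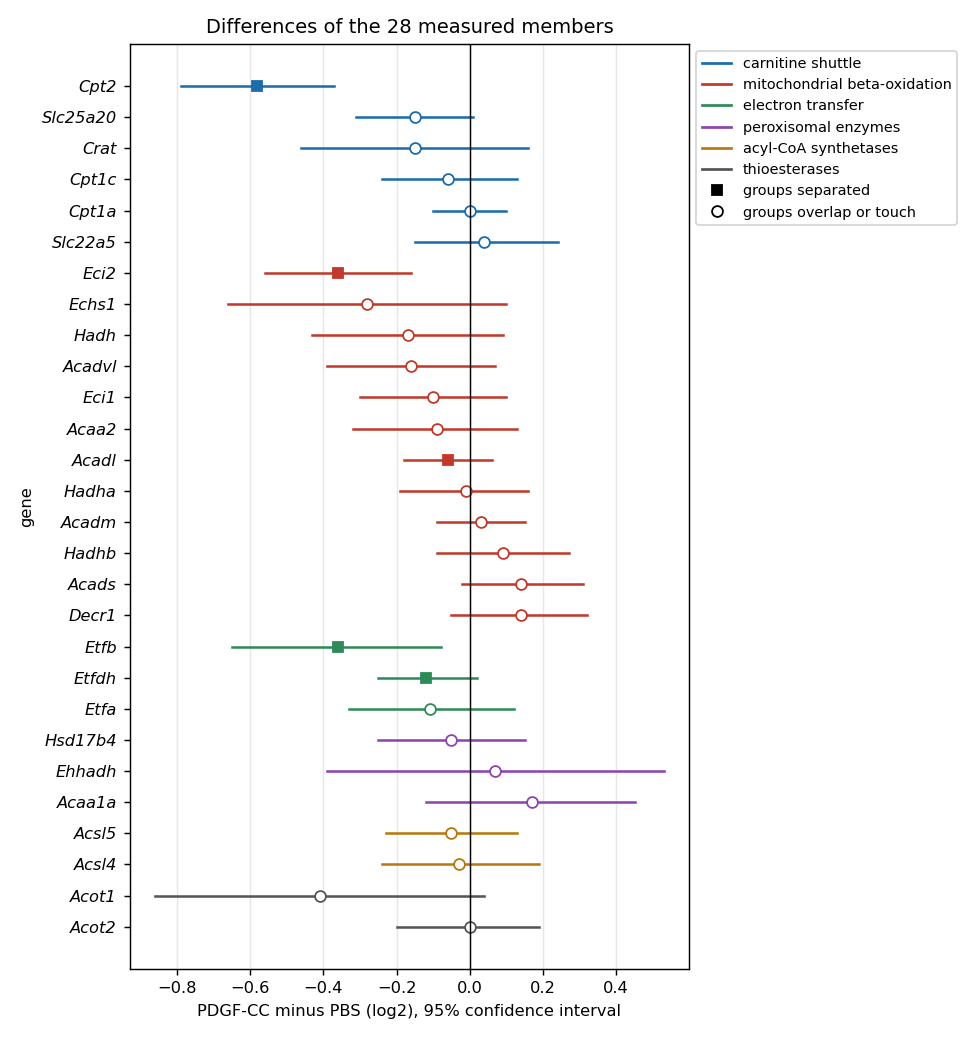
Difference between PDGF-CC and PBS (x axis, log2, points) with its 95% confidence interval (lines) for the 28 measured members (y axis), coloured by role; filled squares mark members whose groups do not overlap. The intervals of Cpt2, Eci2 and Etfb lie wholly below 0, and the other 25 include 0.

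The stretches before the starts of the 4 members that separated by more than 0.03, and of Cpt1a, whose values were level, are printed so that their promoters can be compared. Each is the 250 bases upstream of the start in RefSeq (GRCm38.p6), written 5′ to 3′ on the strand of the gene. They lie at chr4:107923590-107923839, minus strand (Cpt2), chr13:34994145-34994394, minus strand (Eci2), chr7:43443822-43444071, plus strand (Etfb), chr3:79628768-79629017, minus strand (Etfdh) and chr19:3323051-3323300, plus strand (Cpt1a). Capitals mark the GC box GGGCGG, on either strand, and the palindrome of nuclear respiratory factor NRF1, GCGCA joined to its reverse complement TGCGC.
Cpt2: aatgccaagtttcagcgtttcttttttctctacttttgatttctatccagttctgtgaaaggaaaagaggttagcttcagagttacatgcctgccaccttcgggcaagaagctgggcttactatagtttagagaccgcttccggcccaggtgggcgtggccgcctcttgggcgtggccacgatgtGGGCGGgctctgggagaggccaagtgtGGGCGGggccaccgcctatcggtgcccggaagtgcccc
Eci2: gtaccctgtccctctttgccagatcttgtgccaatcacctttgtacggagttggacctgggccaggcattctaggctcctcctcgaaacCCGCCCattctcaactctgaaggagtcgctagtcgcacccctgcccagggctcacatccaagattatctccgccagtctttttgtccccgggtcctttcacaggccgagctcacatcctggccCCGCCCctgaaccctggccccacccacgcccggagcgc
Etfb: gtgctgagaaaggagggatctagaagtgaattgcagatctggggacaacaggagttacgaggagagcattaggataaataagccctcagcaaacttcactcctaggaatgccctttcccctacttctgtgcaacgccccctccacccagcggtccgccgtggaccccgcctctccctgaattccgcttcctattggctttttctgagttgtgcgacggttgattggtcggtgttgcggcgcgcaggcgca
Etfdh: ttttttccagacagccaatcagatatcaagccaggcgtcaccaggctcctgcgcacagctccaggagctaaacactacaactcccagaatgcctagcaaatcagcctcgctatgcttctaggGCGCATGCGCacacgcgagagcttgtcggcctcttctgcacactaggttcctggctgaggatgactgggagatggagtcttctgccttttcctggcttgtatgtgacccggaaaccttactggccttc
Cpt1a: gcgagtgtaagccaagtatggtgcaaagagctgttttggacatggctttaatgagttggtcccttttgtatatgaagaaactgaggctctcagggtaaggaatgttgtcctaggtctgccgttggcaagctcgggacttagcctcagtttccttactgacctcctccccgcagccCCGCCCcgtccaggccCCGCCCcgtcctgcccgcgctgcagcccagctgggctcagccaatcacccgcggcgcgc

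Windows of this kind were found for 24 of the 28 members, and those of Acaa2, Decr1, Crat and Hsd17b4 were not matched. The Cpt2, Eci2 and Cpt1a windows each held 2 GC boxes and those of Etfb and Etfdh 0. Over the members 17 of 24 windows (70.8%) held a GC box, beside 32.7% of all 32851 windows of that length, and the member windows were richer in G and C (median 58.8% against 52.4%). The NRF1 palindrome stood in the Etfdh window alone of the 24, beside 0.782% of all windows. Both strands were searched for letters bound by regulators of lipid and stress genes. The direct repeat of the fatty acid receptors (PPAR) with RXR, 2 AGGTCA units with 1 base between them, was in 0 of 24 (0.0335% of all). A single AGGTCA unit, which the repeat contains, was in 5 of 24 (14.0% of all), those of Acadm, Acadvl, Cpt1a, Cpt1c and Echs1. The glucocorticoid receptor palindrome, AGAACA and TGTTCT with 3 bases between them, was in 0 of 24 (0.00913% of all) and the forkhead letters GTAAACA in 0 of 24 (3.17% of all). A match describes letters in this window only.

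Among the carnitine carriers and transferases, Cpt2 differed most and Cpt1a least. Cpt2 encodes the inner-membrane transferase that hands acyl groups back to coenzyme A inside the mitochondrion. Its log2 values were 7.61, 7.83, 7.67 and 7.60 in the PDGF-CC arrays and 8.37, 8.10 and 8.30 in the PBS arrays. Every PDGF-CC array was below every PBS array, with a gap of 0.274 between the nearest arrays. The difference was -0.58 ± 0.088 (log2, SE, n = 4 and 3; 95% confidence interval -0.79 to -0.37). By limma the unadjusted p was 0.000284, the 8th smallest of 17734, and the adjusted p 0.598. The adjusted p ran from 0.319 to 0.829 over 17 alternative settings, and the largest unadjusted p among them was 0.00821. The nearest protein-coding gene with a value, Czib, differed by 0.02 ± 0.075.

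Cpt1a encodes the outer-membrane transferase that malonyl-CoA inhibits, the step at which entry of fatty acids is controlled. Its log2 values were 8.37, 8.35, 8.37 and 8.39 after PDGF-CC and 8.34, 8.37 and 8.39 after PBS. All 7 arrays lay within this narrow range, and the confidence interval of the difference ran from -0.10 to 0.10 (log2). The difference in log2 value between Cpt2 and Cpt1a within an array was -0.79 to -0.52 after PDGF-CC and -0.27 to 0.03 after PBS. This change of -0.58 had an exact permutation p of 0.0286 (2-sided, 35 ways to assign the arrays, the smallest they can give). It was 1 of 4 pairs of partners compared, chosen after their values were seen, and the p adjusted over them was 0.114. No pair passed, but a single pair at the smallest possible p cannot pass this adjustment, so this decides nothing. As Cpt1a was level and the Cpt2 groups were separate, the contrast repeats the difference of Cpt2 (-0.58) and adds no further evidence.

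Slc25a20 encodes the translocase between CPT1 and CPT2. Its log2 values were 6.10, 6.22, 6.05 and 6.22 after PDGF-CC and 6.38, 6.28 and 6.22 after PBS. The groups met at nearly the same value in PDGF-CC arrays 2 and 4 and PBS array 3, and the difference was -0.15 ± 0.069 (limma adjusted p = 0.769). Cpt1c, the isoform found in neurons and the endoplasmic reticulum, read 5.29, 5.40, 5.29 and 5.29 after PDGF-CC and 5.29, 5.29 and 5.54 after PBS. The same value stood in 5 of the arrays, and the difference was -0.06 ± 0.078. Slc22a5, the plasma membrane carrier of carnitine, differed by 0.04 ± 0.083. Its log2 values were 6.96, 7.21, 7.06 and 7.06 after PDGF-CC and 7.13, 7.06 and 6.90 after PBS, with overlapping groups. Crat, which moves acetyl groups to carnitine, read 6.73, 6.59, 6.60 and 6.72 after PDGF-CC and 7.01, 6.47 and 6.94 after PBS. PBS array 2 was the lowest of all, and the difference of -0.15 ± 0.13 was -0.32 without it and -0.047 without PBS array 1. The dimmer probe set of Crat differed by 0.01 ± 0.059.

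**Figure D2:**
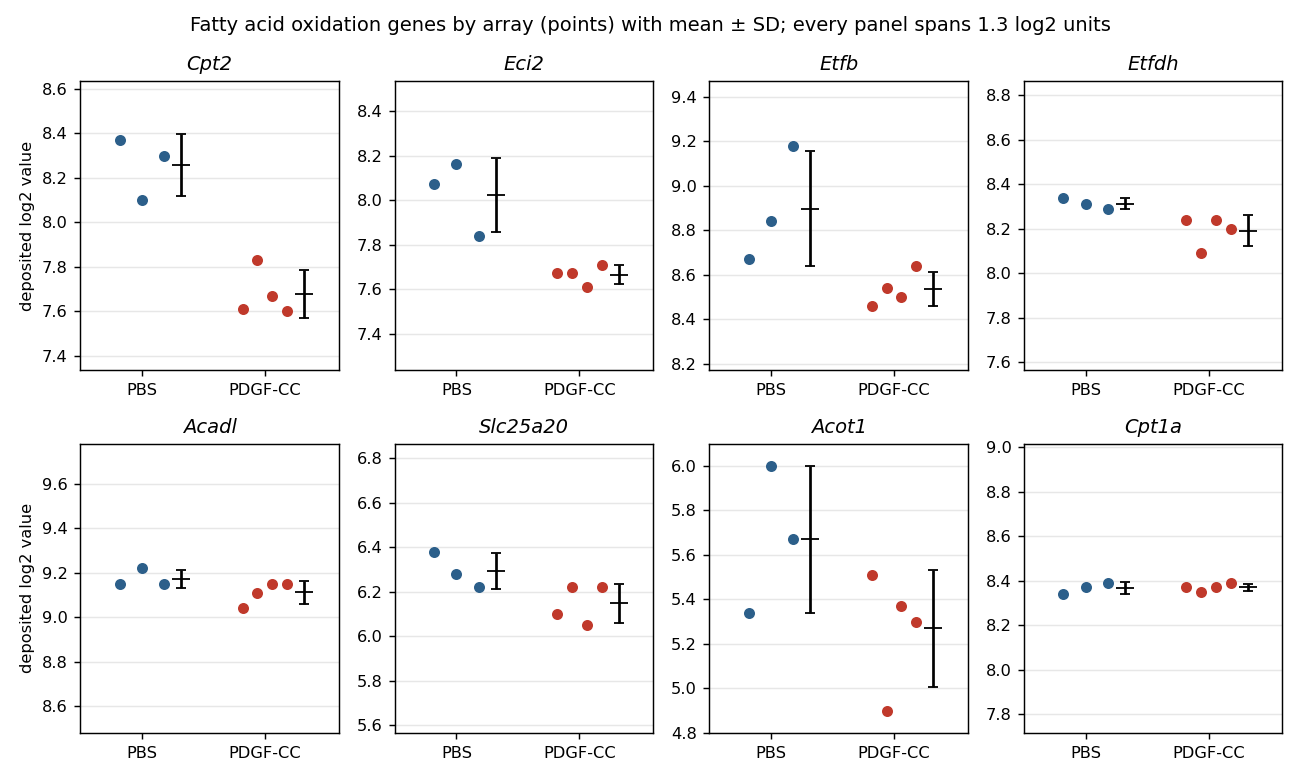
Deposited log2 values (y axis) of 8 members in the 3 PBS arrays (blue) and 4 PDGF-CC arrays (red), with the group mean and SD in black; every panel spans the same height. Cpt2 lay at 7.60 to 7.83 after PDGF-CC and at 8.10 to 8.37 after PBS, and Cpt1a at 8.34 to 8.39 in all arrays.

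In the beta-oxidation spiral itself, 8 of 12 enzymes had a negative difference and 4 a positive one. Eci2 encodes an enoyl-CoA isomerase that moves double bonds of unsaturated fatty acids so that they can be degraded, in mitochondria and peroxisomes. Its log2 values were 7.67, 7.67, 7.61 and 7.71 after PDGF-CC and 8.07, 8.16 and 7.84 after PBS. The PDGF-CC arrays were close together and all below the PBS arrays, with a gap of 0.128. The difference was -0.36 ± 0.083 (limma unadjusted p = 0.00333, adjusted p = 0.769; 95% confidence interval -0.56 to -0.16). Its mitochondrial relative Eci1 differed by -0.10 ± 0.084, with overlapping groups. The contrast between both isomerases changed by -0.26 (exact permutation p = 0.143, adjusted p = 0.229 over the 4 pairs).

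Acyl-CoA dehydrogenases start each round, and they are specialised by chain length. Acads, for short chains, read 5.99, 5.79, 5.79 and 5.94 after PDGF-CC and 5.74, 5.79 and 5.68 after PBS. The groups met at one value shared by 3 arrays, and the difference was 0.14 ± 0.070. Acadvl, for very long chains, read 6.99, 7.17, 6.84 and 7.18 after PDGF-CC and 7.13, 7.16 and 7.32 after PBS, a difference of -0.16 ± 0.098 with overlapping groups. Acadl, for long chains, differed by -0.06 ± 0.052; its groups were separate by 0.002 only. Acadm, for medium chains, differed by 0.03 ± 0.050, and PDGF-CC array 1 was the only array away from the shared value. For these 4 dehydrogenases the unadjusted limma p lay between 0.0812 and 0.602.

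For enzymes of the later steps the groups overlapped. Echs1, the enoyl-CoA hydratase, read 6.36, 6.69, 6.98 and 6.94 after PDGF-CC and 6.96, 6.90 and 7.21 after PBS. PDGF-CC array 1 was the lowest, and the difference of -0.28 ± 0.16 was -0.15 without it. Hadh, the hydroxyacyl-CoA dehydrogenase, read 8.05, 8.05, 8.16 and 8.31 after PDGF-CC and 8.20, 8.20 and 8.54 after PBS. PBS array 3 was the highest, and the difference of -0.17 ± 0.11 was -0.054 without it. Decr1, a reductase needed for polyunsaturated chains, read 7.15, 7.42, 7.34 and 7.26 after PDGF-CC and 7.06, 7.19 and 7.21 after PBS, and overlapped only through PDGF-CC array 1. Its difference was 0.14 ± 0.079. Hadha and Hadhb, the subunits of the trifunctional protein, differed by -0.01 ± 0.074 and 0.09 ± 0.077, and the thiolase gene Acaa2 by -0.09 ± 0.096. The Hadhb probe set was dim, at log2 4.70 to 4.96 after PDGF-CC and 4.65 to 4.81 after PBS. It was above only 16% of the tested probe sets in brightness. Adjusted p in limma lay between 0.769 and 0.970 for all 12 enzymes of the spiral.

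All 3 genes of the electron transfer step had negative differences. Etfb encodes the beta subunit of the electron transfer flavoprotein, which accepts electrons from every acyl-CoA dehydrogenase of the spiral. Its log2 values were 8.46, 8.54, 8.50 and 8.64 after PDGF-CC and 8.67, 8.84 and 9.18 after PBS. The groups did not overlap, but only 0.034 separated PDGF-CC array 4 from PBS array 1. The difference was -0.36 ± 0.12 (limma unadjusted p = 0.0190, adjusted p = 0.769). It was -0.22 without PBS array 3, the highest, and -0.48 without PBS array 1. Etfdh, the dehydrogenase that passes these electrons to ubiquinone, read 8.24, 8.09, 8.24 and 8.20 after PDGF-CC and 8.34, 8.31 and 8.29 after PBS. It was lower in every PDGF-CC array by at least 0.041, with a difference of -0.12 ± 0.057 (adjusted p = 0.769). Etfa, the alpha subunit, differed by -0.11 ± 0.094 with overlapping groups, and the contrast of Etfb with Etfa changed by -0.26 (exact permutation p = 0.229, adjusted p = 0.229 over the 4 pairs). That contrast was -0.09 without PBS array 3 and -0.36 without PBS array 1. Cldnd2, which overlaps Etfb, was not analysed here. Ppid, which overlaps the end of Etfdh in the annotation, differed by 0.00 ± 0.090.

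Of the 3 peroxisomal enzymes, 2 had a positive difference and 1 a negative one. Acaa1a, the peroxisomal thiolase, ranged from 7.30 to 7.53 after PDGF-CC (median 7.42) and from 7.10 to 7.52 after PBS (median 7.13), a difference of 0.17 ± 0.12. Without PBS array 2, its only high PBS array, the difference was 0.30. Ehhadh and Hsd17b4, the bifunctional enzymes for straight and for branched or very long chains, differed by 0.07 ± 0.20 and -0.05 ± 0.085. Adjusted p lay between 0.773 and 0.936 in limma for these 3 genes. Among 14 tested genes of a wider peroxisomal list 7 differences were negative and 7 positive, with a median of 0.01. Abcd2, a peroxisomal importer of very long acyl-CoA, was the exception in size. It read 7.02, 7.19, 7.22 and 6.91 after PDGF-CC and 6.89, 5.95 and 6.52 after PBS, a difference of 0.63 ± 0.21 (adjusted p = 0.769) and 0.38 without PBS array 2. In that list Acaa1b differed by 0.21 ± 0.090 and Pex7 by -0.21 ± 0.12, which was -0.10 without PBS array 3. Acaa1b and Pex7 were dim, above only 8% and 10% of the tested probe sets in brightness.

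Acyl-CoA synthetases and thioesterases activate and release fatty acids. Acsl4, which prefers arachidonic acid, and Acsl5 differed by -0.03 ± 0.091 and -0.05 ± 0.075. Acot1 encodes a cytosolic thioesterase whose gene lies beside that of its mitochondrial near-copy Acot2, so that probe sets may read both transcripts. Acot1 read 5.51, 4.90, 5.37 and 5.30 after PDGF-CC and 5.34, 6.00 and 5.67 after PBS. The groups overlapped through PBS array 1, and the difference of -0.41 ± 0.19 (limma unadjusted p = 0.0708, adjusted p = 0.769) ran from -0.57 without that array to -0.24 without PBS array 2. Acot2 read 5.66, 5.86, 5.78 and 6.00 after PDGF-CC and 5.83 in all 3 PBS arrays, with group means of 5.82 and 5.83. The contrast of Acot1 with Acot2 changed by -0.40 (exact permutation p = 0.229, adjusted p = 0.229 over the 4 pairs).

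**Figure D3:**
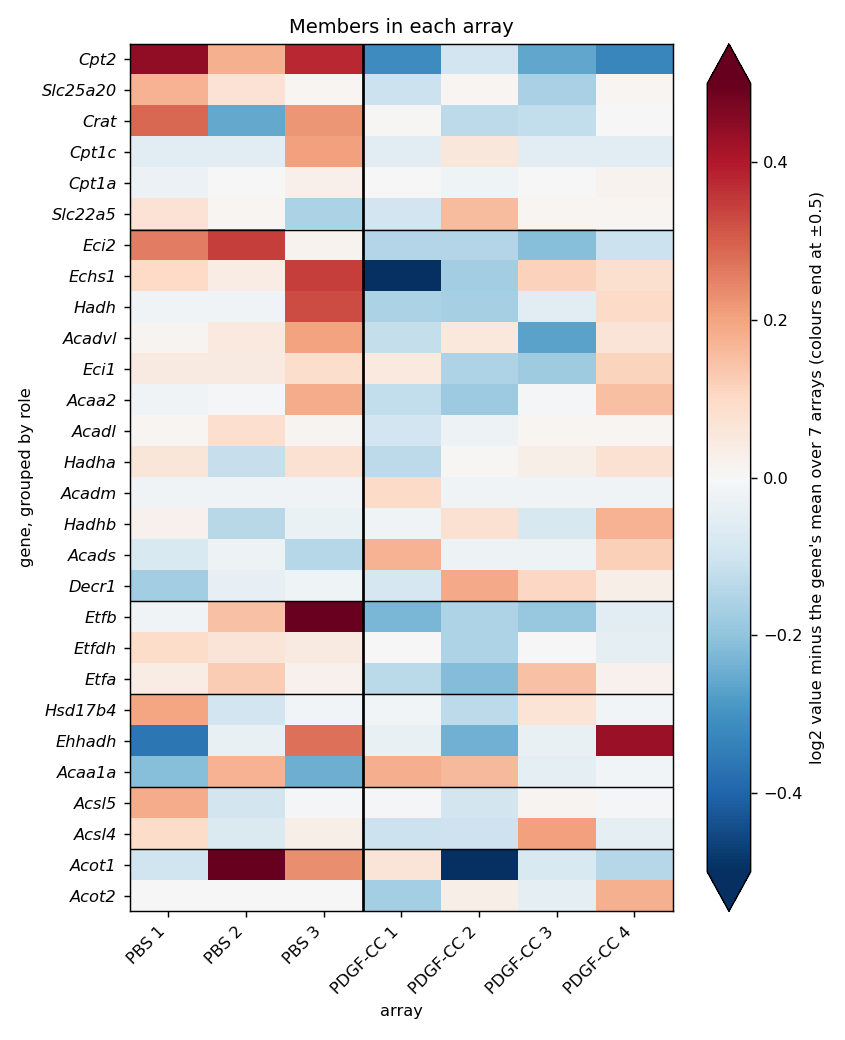
Log2 value of each member minus its mean over the 7 arrays (colour, ending at ±0.5) by array (x axis; PBS left and PDGF-CC right of the black line) and gene (y axis, grouped by role). Cpt2 changes colour at the line between groups. Eci2 and Etfb do so too, apart from arrays near their own mean, PBS array 3 for Eci2 (0.019) and PBS array 1 for Etfb (-0.018). PBS array 3 is the highest or equal highest in 8 members.

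The arrays of a group were not alike over the 28 members. PBS array 3 had 20 members above their own mean, and PDGF-CC arrays 1, 2 and 3 had 8, 9 and 10. PDGF-CC array 4 had 16, close to PBS array 2 with 15 and PBS array 1 with 17. The sample descriptions carry numbers, 1, 2, 5 and 6 for PDGF-CC arrays and 3, 4 and 7 for PBS arrays. Within numbers 1 to 4 Cpt2 differed by -0.52, Eci2 by -0.45, Etfb by -0.26 and Etfdh by -0.16. Within 5 to 7 they differed by -0.67, -0.18, -0.61 and -0.07. Their negative sign in both parts follows from their separated groups. In each part the PDGF-CC numbers precede the PBS numbers, so treatment and this order cannot be told apart within them. The sign differed between the parts for 9 members, Etfa (-0.26 and 0.06), Cpt1c (0.05 and -0.26), Slc22a5, Ehhadh, Hsd17b4, Acsl4, Acsl5, Acot2 and Cpt1a.

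**Figure D4:**
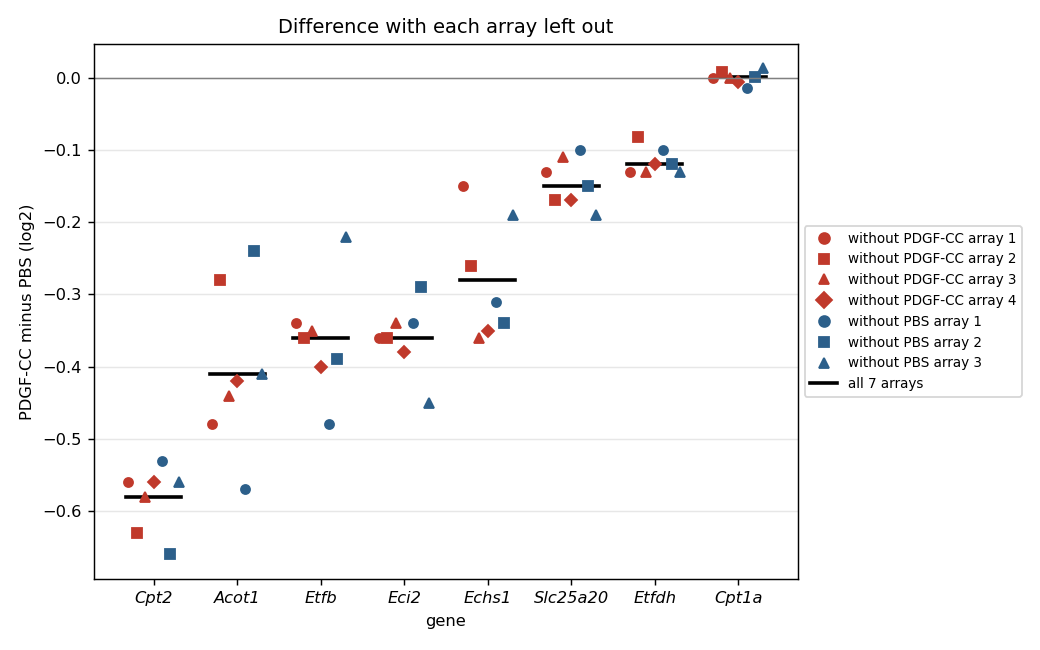
Difference between PDGF-CC and PBS (y axis, log2) for 8 genes (x axis) with all 7 arrays (black bars) and with each array left out (red symbols for PDGF-CC, blue for PBS). Cpt2 stayed between -0.66 and -0.53, whereas Etfb ran from -0.48 to -0.22 and Acot1 from -0.57 to -0.24.

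Other genes of acyl-CoA and ketone metabolism, not all of them mitochondrial, had 12 negative and 10 positive differences among 22 tested, with a median of -0.01. Acad11, an acyl-CoA dehydrogenase related to the members, read 5.79, 5.81, 5.79 and 5.95 after PDGF-CC and 6.10, 6.16 and 6.19 after PBS. It was lower in every PDGF-CC array, by -0.32 ± 0.061 (limma unadjusted p = 0.00119, adjusted p = 0.722). Acad8, which acts on a breakdown product of valine, differed by -0.29 ± 0.13, and Oxct1, which activates ketone bodies for use as fuel, by 0.13 ± 0.061. Leaving out PDGF-CC array 1 gave -0.19 for Acad8, and leaving out PBS array 2 gave 0.074 for Oxct1. At an unadjusted p under 0.05 this list of 22 held 1 gene lower and 0 higher, beside 3.41% and 2.63% of all tested probe sets.

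Nuclear receptors of the PPAR family bind fatty acids and switch on many oxidation genes together with PGC-1 coactivators. Among 15 tested regulators of this kind 11 differences were negative and 4 positive, with a median of -0.04. Ppara, above only 19% of the tested probe sets in brightness, differed by -0.28 ± 0.14, and by -0.11 without PBS array 3. Ppargc1a, which encodes PGC-1 alpha, differed by -0.18 ± 0.093, and Lpin1, a phosphatase and coactivator, by -0.17 ± 0.069. Lpin1 was lower in every PDGF-CC array, and no regulator passed the adjusted threshold in limma (lowest adjusted p = 0.769). Of 12 genes known as PPAR targets outside oxidation, 9 differences were negative, with a median of -0.07. Angptl4 and Pdk4 were far below that median, at -1.76 ± 0.27 and -0.89 ± 0.18 (limma adjusted p = 0.598 and 0.722). Lpl was at -0.31 ± 0.16 on its brightest probe set, at -0.14 without PBS array 1 and at -0.13 with its 2 probe sets averaged.

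No marker of any cell type passed the adjusted threshold in limma, and the lowest adjusted p was 0.769. Of 10 choroid plexus markers, 9 were tested, 8 had negative differences and 7 an unadjusted limma p under 0.05. Their mean log2 value was 6.08 to 6.86 in the PDGF-CC arrays and 6.90 to 7.19 in the PBS arrays, and their summed intensity 5667 to 7746 and 8178 to 8867. The sum mostly follows Ttr, by far the brightest, at 12.37 to 12.78 and 12.84 to 12.93 (difference -0.26 ± 0.10). Kl and Kcne2 differed by -1.14 ± 0.30 and -0.78 ± 0.21, and Kcnj13 was not analysed here. Microglial markers, 8 of 9 tested and 7 of them positive, had a mean of 9.56 to 9.63 and 9.06 to 9.52 in these groups and a summed intensity of 8538 to 8971 and 5666 to 8126. Cx3cr1 differed by 0.53 ± 0.18 (0.30 without PBS array 2) and P2ry12 by 0.32 ± 0.096. Pericyte markers, all 10 tested and 9 negative, overlapped between groups, with means of 8.69 to 9.17 and 9.01 to 9.28 and summed intensities of 8675 to 11131 and 9937 to 11233. Kcnj8 and Abcc9 differed by -0.21 ± 0.060 and -0.35 ± 0.14. Neutrophil and monocyte markers, all 7 tested and 6 negative (median -0.50), had means of 5.98 to 7.01 and 6.40 to 7.55 and summed intensities of 908 to 1816 and 1243 to 2805. Ly6c2 was lower in every PDGF-CC array, by -0.32 ± 0.087 (limma unadjusted p = 0.0078), and Ltf differed by 0.09 ± 0.059. Of this list only Ly6c2 had separated groups, so it does not stand for the other markers. Smooth muscle markers (5 of 6 positive) had means of 9.11 to 9.28 and 8.91 to 9.21, and oligodendrocyte markers (5 of 5 positive) of 4.92 to 5.38 and 4.85 to 5.0. Astrocyte markers (8 of 8 tested, 5 negative) overlapped too, at 6.72 to 6.94 and 6.80 to 6.94, and endothelial markers at 10.60 to 10.77 and 10.63 to 10.85. The part of these cell types in the differences of Cpt2, Eci2 and Etfb was not tested.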

How the data were processed

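The submitters' processing notes name Affymetrix Expression Console, RMA and limma, without settings, and the authors deposited log2 values for 33793 probe sets in 7 arrays, made per the labels' protocols from 10 ng of total RNA each. RMA equalises value distributions between arrays, so a change in overall RNA level is removed. The genome build used for the probe sets is not given in the sources used here. The platform annotation gave 23521 probe sets 1 gene symbol, 1814 several and 8458 none.

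Testing covered the 17734 named probe sets whose mean exceeded the 30th percentile (log2 4.145). The comparison of both groups used limma 3.58.1 (lmFit, eBayes; R 4.3.3), 2-sided, with Benjamini-Hochberg adjustment over all tested probe sets and a threshold of 0.05. The fit was tested on simulated data. The number of arrays limits the precision.

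The members, lists and pairs were chosen with earlier results of these data known. Every member is named. Values by array are given for the carnitine shuttle, Acot1, Acot2 and up to 8 other members with the smallest p. Up to 3 genes with the smallest p are named from each wider list, with Ppara and Ppargc1a added, and up to 2 from the choroid plexus, microglial, pericyte and neutrophil lists. Ttr is named as the brightest choroid plexus marker. Figures were drawn with matplotlib 3.10.9.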

Additional observations from a re-analysis of the deposited data

Results flagged for a closer look

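Among the 4 PDGF-CC arrays, 1 array stood far from the other 3 by Dixon's 95% criterion, in 6 of 48 named genes, 2 of them members. Chance alone gives about 1 in 20 groups, and equal values make such gaps easier. Cpt1c was 5.40 in PDGF-CC array 2 and 5.29 in the other 3. Acadm was 9.25 in PDGF-CC array 1 and 9.14 in the others. Acad11 was 5.95 in array 4, with the nearest at 5.81, Pdk4 was 7.51 there, with the nearest at 7.58, and Lpl was 6.73 there, with the nearest at 7.09. Lpin1 was 6.09 in array 2, with the nearest at 6.28.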

How the results depend on the processing

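Of the 28 member differences, 18 kept their sign under each of the 17 alternatives run for them (16 for Hadhb, which the filter at the 50th percentile removes). Signs turned for 9, and Acadm was at 0 without PDGF-CC array 1. No member passed the adjusted threshold in any of these fits, and Cpt2, Eci2 and Etfb were at an unadjusted limma p under 0.05 in all of them. Leaving out 1 array moved the difference by over 1.5 times for 23 members, and by less for Cpt2, Slc25a20, Acads, Eci2 and Etfdh. Over all probe sets, 3 passed, against 0, when arrays were centred on the median and when the prior was trended and robust. The same number passed when the filter was the 50th percentile and when all probe sets of a gene were averaged. With quantile normalization repeated 1 passed, and with an array left out 0 to 1. Members at an unadjusted p under 0.05 numbered 5 when description numbers (1 to 4, 5 to 7) formed a block, which added Hadh and Echs1 (8.66% of all tested probe sets, against 6.04%). They numbered 3 to 5 with an array left out (4.18% to 5.95% of all). Separated members numbered 5 to 8 (6.23% to 12.4% of all, against 4.3%), and the median difference over the 28 members ran from -0.11 to -0.05 with an array left out.

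Signs turned only for differences of at most 0.071. Cpt1a was at -0.0044 with description numbers as a block, Hadha at 0.015 with quantile normalization repeated and 0.019 with the description number as a covariate. Acot2, at -0.0021 with all arrays, was at 0.0010 and 0.0078 with repeated quantile normalization and centring, 0.028 with array weights and 0.032 with the description number. With an array left out, ranges crossing 0 were -0.014 to 0.013 (Cpt1a), -0.10 to 0.027 (Cpt1c), -0.073 to 0.029 (Hadha), -0.022 to 0.094 (Slc22a5), -0.089 to 0.23 (Ehhadh), -0.11 to 0.033 (Hsd17b4), -0.10 to 0.0093 (Acsl4), -0.11 to 0.027 (Acsl5) and -0.062 to 0.054 (Acot2). The cause was not tested.

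The sample titles number the arrays of each group from 1. Deviations from the group means of same-numbered arrays correlated at 0.163, 0.107 and 0.084. Each was the highest correlation of that PDGF-CC array with any PBS array. PBS array 3 correlated best with PDGF-CC array 4 (0.32), which has no PBS array of its number. These correlations do not settle whether the numbers pair the arrays, and the main fit left them unpaired. With the replicate block 4 members were at an unadjusted p under 0.05, adding Echs1 (7.14% of all tested probe sets), and 0 past the adjusted threshold, while Cpt1a was at -0.0061 and Ehhadh at -0.063.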
